A study of Homo sapiens with 4 samples.

Results

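The light polysomes of HCT116 cells under a Dicer1 knockout label were set against those of wild type cells, gene by gene, with 1 library on each side and so no replicate check. Members were all genes with 100 or more counts in the higher of the 2 light libraries, which were 10992 of the 26364 genes in the table (17857 had a count in either light library). HCT116 is an established human colorectal carcinoma line, and the labels give the genotypes only as wild type and Dicer1 knockout, without the altered site or the number of clones. Cytoplasmic extract of each genotype was spun through a sucrose gradient while absorbance at 260 nm was read. Light polysomes were the fractions with 9 or fewer ribosomes on an mRNA and heavy polysomes those with 10 or more. A heavy library exists for each genotype too, from the same gradient as the light one, and enters here in the scaling, in an alternative reference and where light and heavy ratios are set side by side.

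Dicer cuts short hairpin precursors into mature microRNAs, which guide Argonaute proteins to partly complementary sites, mostly in the 3′ UTRs of mRNAs. Bound mRNAs are translated less and lose their poly(A) tails sooner, and the bases 2 to 8 of the microRNA, the seed, decide most of the pairing. How many ribosomes an mRNA carries depends on how often translation starts and on how long its coding sequence is, so light polysomes hold short mRNAs, poorly initiated mRNAs and RNAs with little translation.

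The mature sequences below come from RefSeq (GRCh38.p14), are written 5′ to 3′, and have the seed in capitals. They show what the enzyme makes and which bases were searched for in 3′ UTRs. The first 5 are microRNAs made in most epithelial cells, and the last, miR-122, is known from liver and served for comparison.
hsa-let-7a-5p: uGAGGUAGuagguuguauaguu
hsa-miR-17-5p: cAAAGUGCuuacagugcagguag
hsa-miR-16-5p: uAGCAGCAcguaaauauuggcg
hsa-miR-21-5p: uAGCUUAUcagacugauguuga
hsa-miR-29a-3p: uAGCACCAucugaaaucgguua
hsa-miR-122-5p: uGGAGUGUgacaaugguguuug

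The light libraries held 19727010 counts for the wild type and 17457116 for the labelled knockout. Ratios are log2 of labelled knockout over wild type after scaling to equal library size (TMM-scaled CPM), so that equal counts in both libraries stand at a ratio of 0.26. Each has a 95% interval for counting error only, since PCR reads are not independent molecules and no replicate shows the spread between cultures. Ribosomal RNA took 3.59% of the wild type and 5.97% of the labelled knockout light library. Of 10 markers of epithelial colorectal cells, 8 had 100 or more counts and 3 were called higher (37.5%, against 3.91% of all genes). Their summed level was 2115 CPM for the wild type and 3700 CPM for the labelled knockout, and 9464.5 and 10552.5 CPM in heavy polysomes. The median ratio of the 8 was 0.87 in light and 0.04 in heavy polysomes, and 0.08 against the mixed reference described below. By their median these markers thus moved with the label mainly in light polysomes. Single members differed in heavy polysomes too, where 1 was called higher and 1 lower. The part of these markers in the results was not tested. Of 18 markers of fibroblasts, endothelium and blood, 2 had 100 or more light counts (COL1A1 and CD68) and 5 were at 0 in both light libraries. Their summed light level was 24.7 CPM for the wild type and 28.6 CPM for the labelled knockout. DICER1 itself had 547 wild type and 889 labelled knockout light counts (ratio 0.96, interval 0.81 to 1.11), and 500 and 925 in the heavy ones. Its mRNA was thus higher, not lower, in the libraries labelled knockout. Reads were summed over the gene, which leaves an altered exon unseen, so every direction below rests on the label.

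A gene was called where it differed at least 2-fold and its interval excluded 0. In light polysomes 430 genes were called higher (3.91% of those considered) and 335 lower (3.05%) in the labelled knockout. The median ratio of all 10992 genes was 0.00. In the heavy pair, with 10690 genes considered, 348 were called higher (3.26%) and 278 lower (2.6%). Scaling decided which direction held more light calls: library totals gave 336 higher and 443 lower, so that the higher share went from 56.2% to 43.1%. At the count threshold, the 14 genes at 99 counts had a median ratio of -0.53 and the 16 genes at 100 counts one of 0.05.

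**Figure D1:**
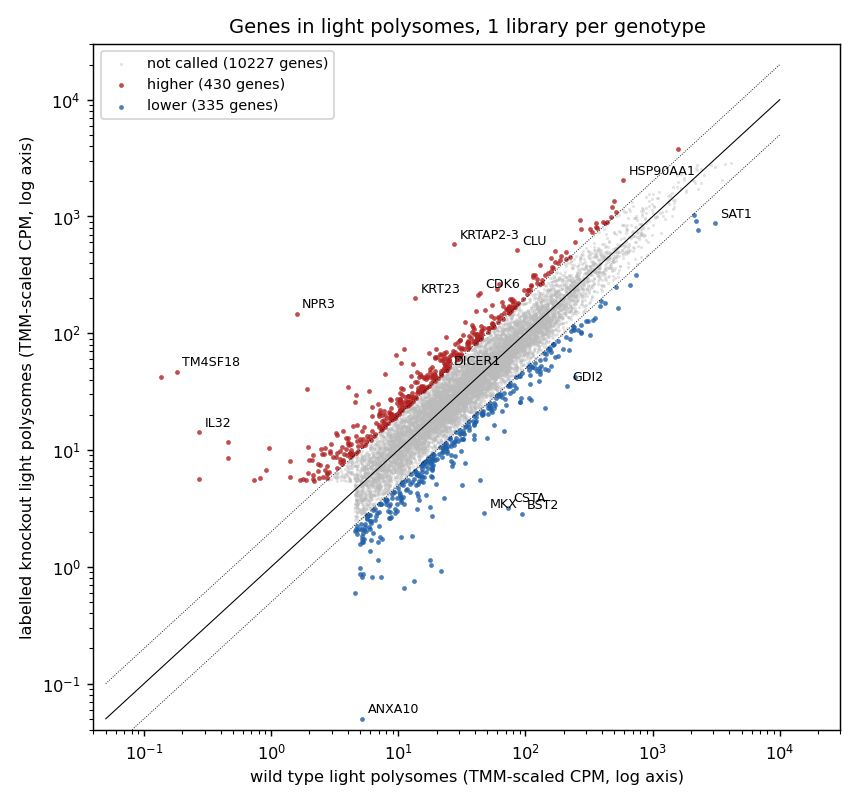
Each point is 1 of the 10992 genes, with its TMM-scaled CPM in wild type light polysomes (x, log axis) and in labelled knockout light polysomes (y, log axis); the solid line marks equal levels, the dotted lines 2-fold, and a count of 0 is drawn at 0.05 CPM. The 430 genes called higher are red and the 335 called lower are blue, and DICER1 lies inside the dotted lines.

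Among the genes farthest above the wild type were membrane proteins, keratin-associated proteins of hair, an epithelial keratin and secreted signals. TM4SF18, a membrane protein of the tetraspanin-like L6 family, had 4 wild type and 859 labelled knockout counts (ratio 7.38, interval 6.22 to 8.54). NPR3, which clears natriuretic peptides from the blood, had 35 and 2702 counts (6.45, 5.98 to 6.91). The heavy pair showed both genes at like ratios of 7.20 and 6.55. KRTAP2-3, a keratin-associated protein of hair, had 607 and 10676 counts (4.39), and its relative KRTAP4-12 had 6 and 104 (3.95). Both belong to families of near-identical genes, so their reads are uncertain. KRT23, an epithelial keratin, had 299 and 3664 counts (3.87).

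IL32, a cytokine, had 6 wild type and 261 labelled knockout counts (ratio 5.27), and ICAM1, an adhesion receptor for leukocytes, had 10 and 216 (4.42). An antisense gene covers 29.5% of the exons of ICAM1. Others were signalling genes: DCLK1, a doublecortin-like kinase, with 10 and 157 counts (3.97), and the Wnt ligand WNT3A with 21 and 192 (3.32). ZBED2, a zinc finger regulator of transcription, had 42 and 609 counts (4.05), and SNTB1, a syntrophin that anchors membrane proteins, 210 and 1191 (2.75). MAMDC2 had 88 and 639 counts (3.09) and VCAN, the matrix proteoglycan versican, 244 and 1343 (2.71).

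Among genes with 2000 or more counts, CLU, the secreted chaperone clusterin, differed between the fractions. It had 1873 and 9411 counts in light polysomes (ratio 2.59, interval 2.52 to 2.66) and 13222 and 22543 in heavy ones (0.83). TFRC, the transferrin receptor, had 925 and 3903 light counts (2.34), and CDK6, a kinase of the G1 phase of the cell cycle, 965 and 4049 (2.33). Their heavy ratios were close to these, at 2.18 and 2.31. The glucose transporter SLC2A1 had 1375 and 4830 counts (2.07), the calcium sensor VSNL1 1311 and 4417 (2.01), and the growth factor BMP4 892 and 2874 (1.95). HSP90AA1, a heat-inducible chaperone, had 12936 and 37540 light counts (1.80, interval 1.77 to 1.83) against 85745 and 128818 heavy counts (0.65).

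On the lower side, BST2, the interferon-induced tetherin, had 2058 wild type and 52 labelled knockout counts (ratio -5.00, interval -5.39 to -4.61). CSTA, a cystatin that inhibits cysteine proteases, had 1595 and 59 (-4.45). ANXA10, an annexin, had 115 counts and 0, which makes it at least 32.0-fold lower with 3 counts taken as the floor of a library. The interferon-induced IFI27 had 396 and 19 counts (-4.00), and FXYD3, a regulator of the sodium pump, 391 and 21 (-3.85). Another gene on its strand covers 88.1% of the FXYD3 exons. BHMG1 had 245 and 12 counts (-3.90) and LURAP1L 973 and 101 (-2.98).

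Receptors and secreted factors were on this side too. ADGRF1, an adhesion G protein-coupled receptor, had 3149 and 423 counts (-2.63), CXCL8, a chemokine for neutrophils, 696 and 92 (-2.63), and the guidance factor SEMA3A 408 and 50 (-2.72). ARRDC4, an alpha-arrestin, had 5368 and 776 counts (-2.53), and NR2F1, an orphan nuclear receptor, 2449 and 496 (-2.04). SAT1, which acetylates polyamines for their breakdown, had 68271 counts against 16048 (-1.83, interval -1.85 to -1.80). TRIB3, a pseudokinase of the stress response, had 7077 and 1778 counts (-1.73), S100A14 11704 and 2995 (-1.70), PKIB, an inhibitor of protein kinase A, 2828 and 720 (-1.71), and the olfactory receptor gene OR51B5 2359 and 515 (-1.93). In the heavy pair the genes of this paragraph stood below 0 as well, between -1.07 for PKIB and -3.90 for SEMA3A.

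Genes at one end of chromosome 10 were lower together. Of 100 genes considered in its first 40 Mb (GRCh38 positions from GENCODE), which cover about the short arm, 35 were called lower and 1 higher, against 3.05% and 3.91% of all genes. Their median ratio was -0.77 and 91 of them stood below 0. In heavy polysomes the median of the same genes was -0.77 as well, and 33 were called lower. The 340 genes beyond 40 Mb had a median of 0.04, with 11 called lower. The genome was also divided into 10 Mb windows, of which 248 had 15 or more genes. The 4 windows of the short arm had medians from -0.90 to -0.59, and the lowest of any other window was -0.38, on chromosome 18. This region was chosen after its values were seen. Copy number was not measured, and its part in these ratios was not tested.

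**Figure D2:**
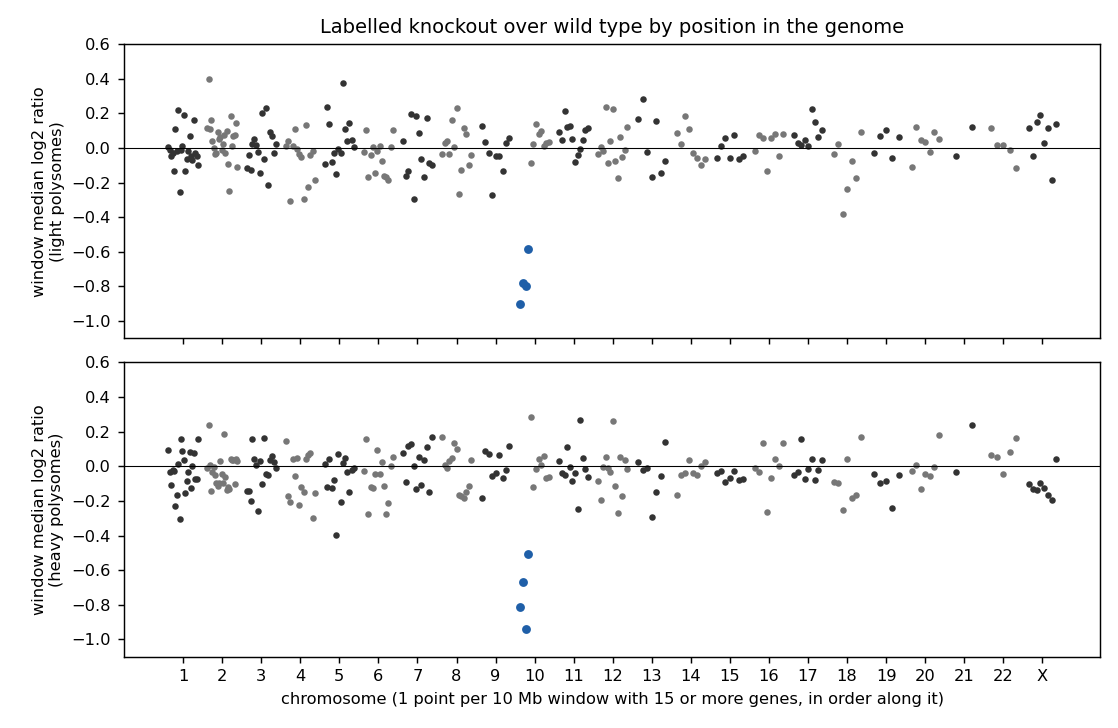
Each point is the median log2 ratio of labelled knockout over wild type in a 10 Mb window with 15 or more genes, in order along each chromosome, for light (top) and heavy polysomes (bottom). The 4 blue points are the windows of the first 40 Mb of chromosome 10, at -0.90 to -0.59 in light polysomes; no other window is below -0.38 there.

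Among the genes of this region, GDI2, which recycles Rab proteins, had 4696 counts in the wild type light library and 645 in that of the labelled knockout (ratio -2.60), MKX, a homeobox regulator of tendon, 1037 and 53 (-3.98), and ARMC4, a protein of motile cilia, 295 and 14 (-3.97). These ratios were far below the median of the region. PFKFB3, which makes the activator of phosphofructokinase, had 594 and 142 counts (-1.79). The following genes were named after their values were seen: OPTN, an autophagy receptor, with 1981 and 472 counts (-1.80), PARD3, a polarity protein, with 1542 and 446 (-1.52), WAC with 6644 and 2320 (-1.26), the transcription factor GATA3 with 135 and 44 (-1.32), and KLF6 with 6245 and 2769 (-0.91). The 1 gene called higher was VIM, the intermediate filament of mesenchymal cells, with 91 and 175 counts (1.19). BAMBI, a decoy receptor of TGF-beta signalling, stood at 0.79. Left out of the totals, these 100 genes took the lower calls from 335 to 300.

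Long noncoding RNAs were lower as a class. Of 169 considered, 44 were called lower (against 3.05% of all genes) and 2 higher, and the median ratio was -0.60 with 146 below 0. Protein-coding genes had a median of 0.02, with 278 of 10626 called lower (2.62%). In heavy polysomes the median of the noncoding RNAs was -0.25. It was present in each class of counts. Among genes with 100 or more but under 200 counts the medians were -0.61 for 60 noncoding RNAs and 0.03 for 1123 coding genes, and among those with 2000 or more they were -0.80 for 19 and -0.03 for 2457. Genes considered in both pairs were also cut into 5 equal classes by heavy to light ratio in the wild type. Only part of the 169 noncoding RNAs entered these classes, since many had too few heavy counts. In the lowest class the median was -0.62 for 66 noncoding RNAs and -0.22 for 1969 coding genes. The other 4 classes held only 7, 3, 1 and 2 noncoding RNAs, and there their medians of 0.05, 0.53, 0.27 and 1.23 were above the coding ones of -0.14, -0.04, 0.15 and 0.50. How the counting treated strand was not given in the sources used here. The 101 noncoding RNAs whose exons overlap no gene on the opposite strand had a median of -0.63, with 29 called lower.

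LINC01468 led the class, with 477 counts in wild type and 17 in labelled knockout light polysomes (ratio -4.41). Small nucleolar RNA host genes, whose spliced transcripts are decayed while they are translated, were among them: SNHG8 had 3126 and 908 counts (-1.52), SNHG7 2384 and 681 (-1.54) and EPB41L4A-AS1 862 and 227 (-1.66). SNHG1, named after its values were seen, had 7790 and 2471 (-1.39). The exons of EPB41L4A-AS1, SNHG8 and SNHG7 overlap genes on the opposite strand over 62.7%, 40.3% and 22.9%. In the list of snoRNA host and noncoding transcripts, 6 of 23 were called lower and 1 higher (median -0.50). The 2 noncoding RNAs called higher were the nuclear MALAT1, with 8893 and 16621 counts (1.16) but 83.7% overlap with an antisense gene, and PKI55, with 41 and 101 counts (1.51). The 86 pseudogenes had a median of -0.25, with 5 called higher (5.81%) and 3 lower (3.49%). The 256 numbered ZNF genes had one of -0.15, with 6 higher (2.34%) and 3 lower (1.17%), both under the shares of all genes.

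The ratio in light polysomes moved with where an mRNA sat in the wild type gradient. Genes considered in both pairs were split into 5 classes of equal size by their heavy to light ratio in the wild type. The class lying most in light polysomes had a median ratio of -0.24, with 23 genes called higher and 108 lower. The class lying most in heavy polysomes had 0.50, with 264 higher and 7 lower. Both quantities use the wild type light library, so this is a description and not a test. With classes from the gradient of the labelled knockout, the medians went from -0.15 to 0.38. Coding length followed the same order: genes with coding sequences up to 500 nucleotides had a median of -0.12 and those over 5000 one of 0.35 (46 of 448 called higher, 0 lower).

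As an alternative reference, the wild type light counts were mixed with 20% of scaled wild type heavy counts. Against it, 174 genes were called higher and 332 lower, and 153 of the 430 higher calls and 249 of the 335 lower calls held. The median of all genes against it was -0.08. Medians of the wild type classes then lay between -0.15 and -0.04, and that of coding sequences over 5000 nucleotides was 0.02. The short arm of chromosome 10 stood at -0.84 and the long noncoding RNAs at -0.41. Adding heavy counts lowers by construction the ratio of genes that lie in heavy polysomes, the class with 264 higher and 7 lower calls, so the unequal loss is no evidence on either side. A difference in the place where the 2 gradients were divided was not tested. In bulk libraries, fewer cells with an mRNA and less of it per cell cannot be told apart.

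**Figure D3:**
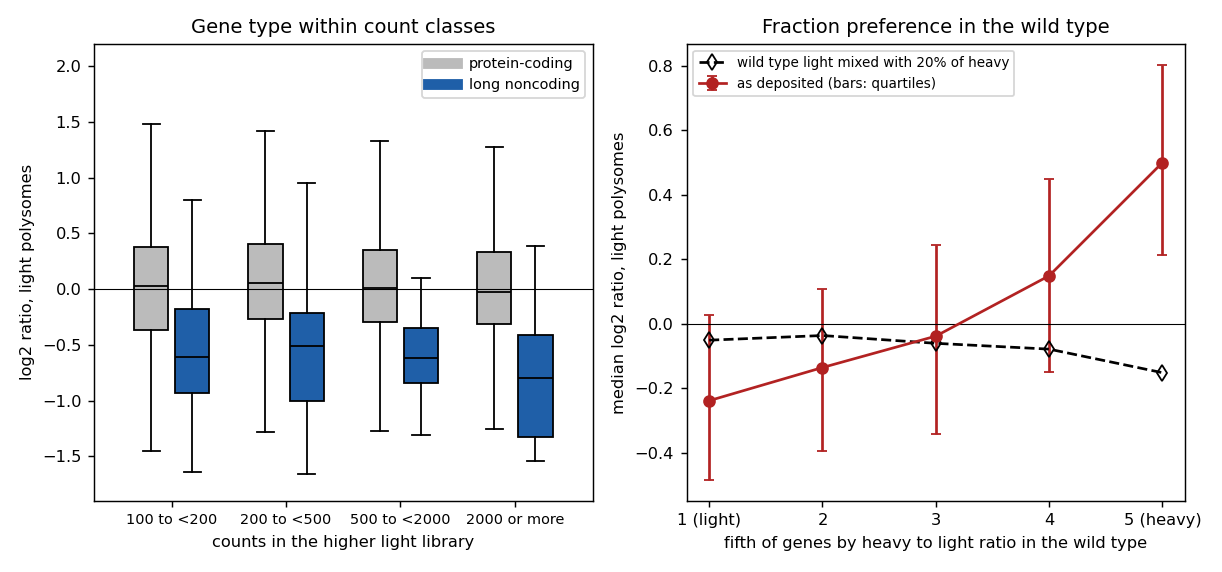
Left, log2 ratios in light polysomes of protein-coding (grey) and long noncoding genes (blue) within classes of counts in the higher light library; boxes show quartiles and median, whiskers reach 1.5 times the box, and the noncoding medians lie below the coding ones in each class. Right, medians (red, bars for quartiles) over 5 classes of genes by wild type heavy to light ratio, which go from -0.24 to 0.50, and the medians against the mixed reference (black, dashed), which stay between -0.15 and -0.04.

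The heavy pair shared a part of these calls. Of the 430 genes higher in light polysomes, 418 could be compared, and 122 of them were called higher in the heavy pair too (29.2% of these 418 and 37.5% of the 325 higher heavy calls among genes considered in both pairs). Of the 335 lower genes 259 could be compared, and 125 were called lower there (48.3% of these 259 and 50.6% of 247 lower heavy calls). No gene was called in opposite directions. Among all 10418 genes considered in both pairs, the heavy pair had 325 called higher and 247 called lower. A heavy ratio within 0.25 of 0 was found for 4511 of these 10418 genes. It was found for 96 of the 418 higher genes and 5 of the 259 lower genes. Since the light and heavy libraries of a genotype share 1 gradient, this overlap is no replicate of the genotype.

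**Figure D4:**
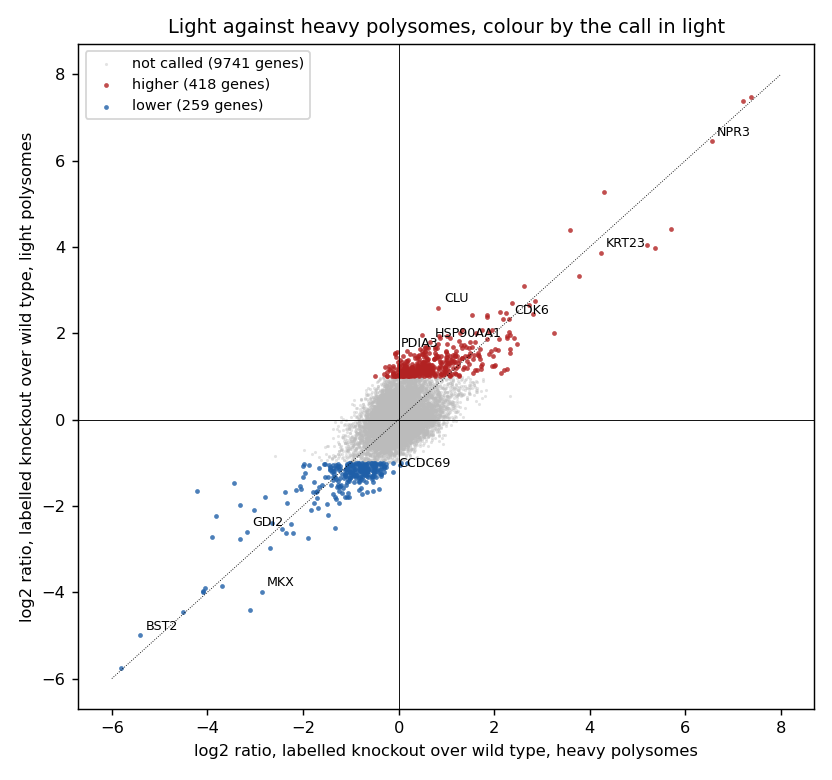
Each point is a gene with 100 or more counts in both pairs, with its log2 ratio of labelled knockout over wild type in heavy (x) and light polysomes (y), coloured by its call in light polysomes; the dotted line marks equal ratios. CLU, HSP90AA1 and PDIA3 lie above the dotted line. Within 0.25 of 0 on the x axis lie 96 of the genes called higher, 5 of those called lower and 4511 of all 10418 genes.

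Among the 96 genes higher in light polysomes with a heavy ratio within 0.25 of 0, the 10 with an interval bound farthest from 0 included proteins of folding and secretion. PDIA3, a disulfide isomerase of the endoplasmic reticulum, had 2868 and 7017 light counts (ratio 1.55, interval 1.49 to 1.61) and 18364 and 16791 heavy counts (-0.07). HSP90B1, the chaperone of the same compartment, had 11006 and 25136 light counts (1.45) and 52019 and 47699 heavy counts (-0.06). Their pseudogenes PDIA3P1 and HSP90B2P stood at 1.56 and 1.51, and reads can be shared between parent and copy. APP, the amyloid precursor, had 3512 and 8169 light counts (1.48), the matrix collagen COL6A2 676 and 1621 (1.52), the surface glycoprotein BSG 10456 and 22047 (1.34), and the growth factor precursor GRN 1476 and 3146 (1.35). SDHA, a subunit of succinate dehydrogenase, had 474 and 1190 (1.58), with 69.4% of its exons shared with a gene on the same strand, and the co-chaperone STIP1 1651 and 3609 (1.39). Against the mixed reference none of these 10 was called: their ratios ran from -0.10 for STIP1 to 0.57 for HSP90B2P.

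On the lower side, 5 genes with a heavy ratio within 0.25 of 0 were called. Of the 10 whose interval bound lay farthest from 0, 3 were among these 5. CCDC69 had 293 and 104 light counts (ratio -1.22) and 117 and 103 heavy counts (-0.12). TIGD2 had 744 and 298 light counts (-1.05) and 323 and 316 heavy ones (0.03), and KLHL29 791 and 329 light counts, just past 2-fold (-0.95 and no longer called with DESeq2 size factors), against 338 and 364 heavy ones (0.17). The other 7 missed 2-fold. VGLL4, named in this group after its values were seen, was also among the 5 called. PKMYT1, the membrane kinase that restrains CDK1, had 1277 and 548 light counts (-0.96), and CCP110, a centriole cap protein, 1708 and 733 (-0.96). RAB3IP (-0.96), AGTPBP1 (-0.98), FAM84B (-0.99), CMBL (-0.90) and PI4K2B (-0.89) were the others. Their ratios against the mixed reference stayed between -1.06 for CCDC69 and -0.69 for PI4K2B.

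Of 52 mitotic spindle and checkpoint genes 14 were called higher (26.9%, against 3.91% of all genes) and 0 lower, with a median ratio of 0.66 against 0.00 over all genes. MKI67, the proliferation antigen, had 2544 and 5827 counts (1.46), the kinesin KIF20A 830 and 1870 (1.43) and the furrow protein ANLN 2501 and 5569 (1.42). In heavy polysomes the median of this list was 0.12, and against the mixed reference it was 0.10. Of 44 DNA replication genes 1 was called higher (2.27%), RPA1 with 967 and 1647 counts (1.03), and the median was 0.19 (-0.23 against the mixed reference, where RPA1 stood at -0.069). Tubulins had 2 of 11 called higher (median 0.43, but -0.058 against the mixed reference), among them TUBB4B with 3769 and 9301 counts (1.56) and TUBA1C with 2245 and 4011 (1.10). Of 45 very long coding mRNAs 9 were called higher (20%; median 0.73, but 0.16 against the mixed reference), such as FAT1, a giant cadherin, with 5882 and 17127 counts (1.80), the spectrin SPTBN1 with 431 and 1131 (1.65) and VPS13C with 154 and 376 (1.54). Only 6 of 34 replication-dependent histones had 100 or more counts. Histone mRNAs of this class lack poly(A) tails, but whether this lowered their counts was not tested. Of the 6, 3 were called lower, HIST1H1C among them with 1325 and 545 counts (-1.02, but -0.97 and not called with DESeq2 size factors). The median of the 6 was -0.75. Histone genes are near-identical, so single members are uncertain.

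**Figure D5:**
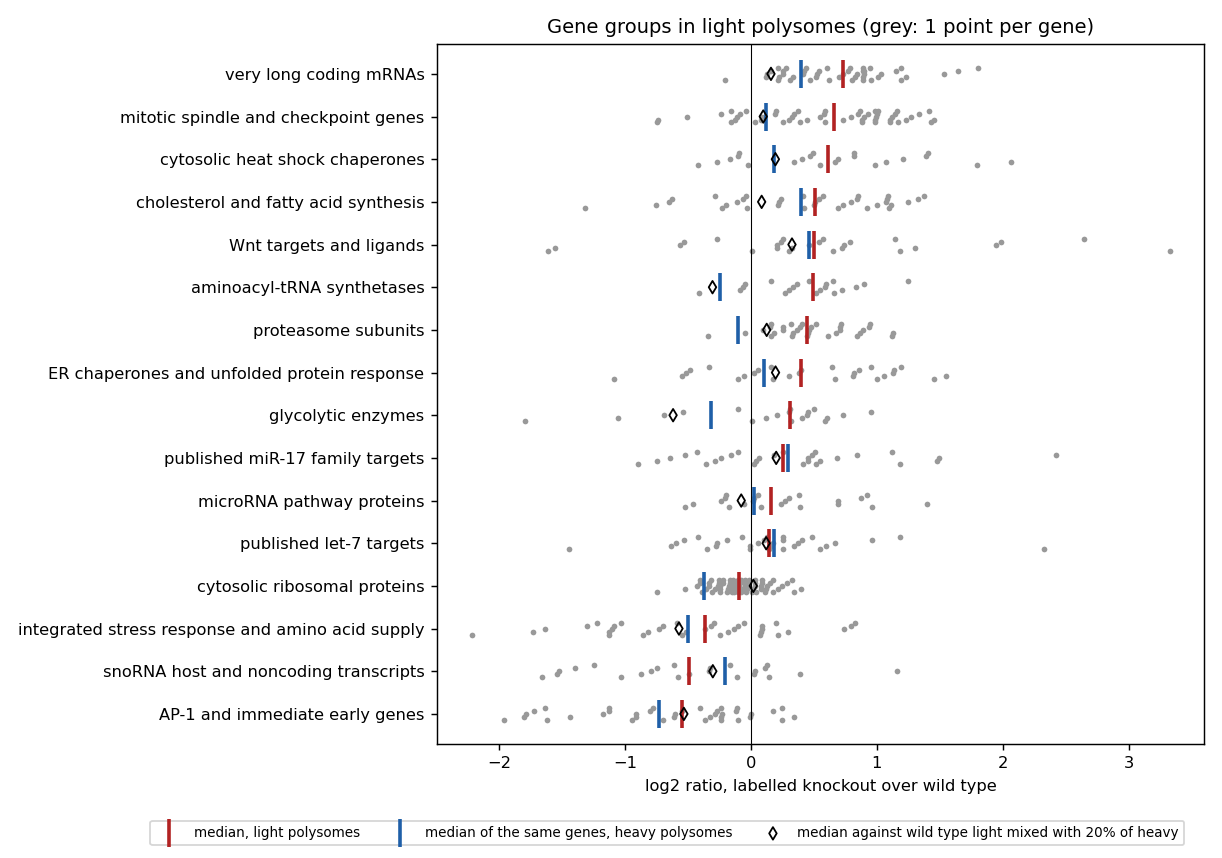
Each grey point is a gene of the group named on the left, at its log2 ratio of labelled knockout over wild type in light polysomes; the red bar is the group's median, the blue bar the median of the same genes in heavy polysomes, and the diamond the median against the mixed reference. Mitotic genes stand at 0.66 in light and 0.12 in heavy polysomes, and immediate early genes at -0.55 and -0.73.

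Of 22 cytosolic heat shock chaperones 6 were called higher (27.3%; median 0.61), among them HSP90AA1, HSPA1B with 288 and 1012 counts (2.07) and the HSP70 partner DNAJA1 with 1173 and 2592 (1.40). HSPA1B is nearly identical to HSPA1A, so its reads are uncertain. Of 27 genes of endoplasmic reticulum chaperones and the unfolded protein response 7 were called higher (25.9%) and 1 lower (median 0.40), such as CALR, the lectin chaperone calreticulin, with 7850 and 15002 counts (1.20). Of 8 subunits of the TRiC chaperonin 1 was called higher, CCT5 with 3602 and 6599 counts (1.13), with a list median of 0.49. An antisense gene covers 52.7% of the CCT5 exons. Of 35 genes of cholesterol and fatty acid synthesis 9 were called higher (25.7%) and 1 lower (median 0.51). HMGCS1, an early enzyme of sterol synthesis, had 862 and 1806 counts (1.33), while INSIG2, which retains the sterol sensor in the endoplasmic reticulum, had 1510 and 505 (-1.32). Over all genes 3.91% were called higher and 3.05% lower. Against the mixed reference the list medians were 0.19, 0.20, -0.33 and 0.09.

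Some housekeeping groups lay above 0 in light and below 0 in heavy polysomes. Aminoacyl-tRNA synthetases had a median of 0.49 in light polysomes, with 1 of 20 called higher (5%, near the 3.91% of all genes): FARSA, a subunit of the phenylalanine enzyme, with 700 and 1386 counts (1.24). Proteasome subunits had a median of 0.45 with 2 of 32 called (6.25%), PSMD1 with 1203 and 2202 counts (1.13) and PSMC2 with 1223 and 2216 (1.12). Complex I subunits had 0.21 with 0 of 38 called, and NDUFS1, with 541 and 790 counts, stood farthest out (0.80). Glycolytic enzymes had 0.31 with 2 of 19 called lower (10.5%, against 3.05% of all genes). Both were regulators of fructose bisphosphate: PFKFB3, and PFKFB4 with 419 and 167 counts (-1.06). The pyruvate kinase PKM had 12868 and 20755 counts (0.95). The heavy medians of these 4 groups were -0.25, -0.11, -0.26 and -0.32. Against the mixed reference the synthetases stood at -0.31, the proteasome at 0.13, complex I at 0.28 and glycolysis at -0.62, so that 2 of the 4 changed sign, as did FARSA (-0.20) and PSMD1 (-0.16).

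The translation machinery itself differed less. Of 72 cytosolic ribosomal proteins 0 were called in either direction, and their median was -0.10 in light and -0.37 in heavy polysomes. RPL17, RPS26 and RPS3A, at -0.75, -0.52 and -0.43, were the members farthest from 0, and many ribosomal protein genes share reads with processed copies. Translation initiation factors had a median of -0.01 over 36, with EIF4B, a helper of the mRNA helicase, called lower at 8534 and 3149 counts (-1.18) and EIF5B, which joins the ribosomal subunits, called higher at 1624 and 2795 (1.04, but 0.96 and not called with library totals). Of 29 SR and hnRNP splicing proteins 2 were called higher (6.9%, against 3.91% of all genes), and the median was 0.16. The 2 were HNRNPU with 2444 and 4705 counts (1.21) and HNRNPM with 1795 and 3067 (1.03). Against the mixed reference HNRNPM stood at -0.15 and the median at -0.15.

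Stress response and immediate early genes stood below 0 in both fractions. Of 37 immediate early genes, which growth signals switch on within minutes, 10 were called lower and 0 higher (27.0%, against 3.05% of all genes), with a median of -0.55. EGR2 had 1094 and 233 counts (-1.96), ZFP36L2, which speeds the decay of AU-rich mRNAs, 1998 and 478 (-1.80), and FOSB 1250 and 301 (-1.79). Of 35 genes of the integrated stress response and amino acid supply 10 were called lower and 0 higher (median -0.37). SESN2, an inhibitor of mTORC1, had 1494 and 267 counts (-2.22), and the transcription factor ATF3 4883 and 1311 (-1.63). The heavy medians of the 2 groups were -0.73 and -0.50, and against the mixed reference they stood at -0.53 and -0.57. Genes of the p53 response had 2 higher (6.25%) and 4 lower (12.5%) of 32, against 3.91% and 3.05% of all genes. Their median was -0.13, and BBC3, which promotes apoptosis, had 1658 and 567 counts (-1.28). Hypoxia response genes had 2 higher (8%) and 4 lower (16%) of 25 (median -0.13). ANKRD37, 54.7% of whose exons overlap an antisense gene, had 402 and 109 counts (-1.61). These lists share members and hold genes of several pathways, and earlier results of these data were known when they were drawn up.

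The list of ERK feedback genes held calls in both directions. Of 22 considered, 3 were called higher (13.6%, against 3.91% of all genes) and 4 lower (18.2%, against 3.05%), with a median of -0.30. ERRFI1, an inhibitor of the EGF receptor, had 50303 and 13938 counts (-1.59) and the phosphatase DUSP5 16240 and 5849 (-1.21), whereas the ephrin receptor EPHA4 had 43 and 194 (2.38). Among 20 EGF family ligands and growth factor receptors 2 were called higher (10%), and the median was 0.06. The 2 were the ligand NRG1 with 18 and 105 counts (2.67) and the receptor EGFR with 222 and 392 (1.07, but 0.99 and not called with library totals). The ligand HBEGF had 727 and 339 counts (-0.84). Of 25 YAP and TEAD targets 2 were called lower (8%), and the median was 0.32. The 2 were GADD45A with 8573 and 3458 counts (-1.05) and VGLL4 with 380 and 156 (-1.01). With DESeq2 size factors neither was called. The exons of VGLL4 overlap antisense genes over 42.3%.

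Of 26 Wnt ligands and targets 7 were called higher (26.9%) and 2 lower (7.69%), against 3.91% and 3.05% of all genes. Their median was 0.50 in light and 0.46 in heavy polysomes. Beside WNT3A, AXIN2, which is both a target and a brake of the pathway, had 102 and 541 counts (ratio 2.64), and the target SP5, a transcription factor, 31 and 108 (1.99). The exons of AXIN2 share 30.9% of their length with another gene on the same strand. HCT116 cells carry an activated form of beta-catenin, so the pathway is on in the wild type too.

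Of 24 mesenchymal and matrix genes 8 were called higher (33.3%) and 0 lower (median 0.59, and 0.23 against the mixed reference), such as COL12A1, a fibril-associated collagen, with 174 and 827 counts (2.50). Epithelial junction genes had 2 of 33 called higher (6.06%; median 0.32, but -0.055 against the mixed reference), DSP, the desmosome plaque protein, with 909 and 1714 counts (1.17) and CDH3 with 1410 and 2657 (1.17). Of 10 integrin subunits 2 were higher (median 0.47, and 0.12 against the mixed reference), ITGB8 with 89 and 235 counts (1.64) and ITGA6 with 1558 and 2962 (1.19). Keratins had 3 of 8 called higher (median 0.52, but -0.17 against the mixed reference, with KRT8 at -0.13), KRT23, KRT8 with 7114 and 14369 counts (1.28) and KRT19 with 11421 and 20248 (1.09). Of 9 annexins 2 were higher and 1 lower (median 0.44, and 0.053 against the mixed reference): ANXA2 had 7965 and 16080 counts (1.27) and ANXA3 4603 and 9210 (1.26), while ANXA10 was the lower one. Of 19 protease inhibitors 2 were higher and 2 lower (median 0.10, but -0.060 against the mixed reference), with SERPINA1 at 129 and 587 counts (2.43) and SLPI at 136 and 15 (-2.78). S100 proteins had 1 of 9 called lower (S100A14; median -0.09), and the 5 metallothioneins considered had a median of 0.53 with 0 called. The shares called higher were 20% of integrins, 37.5% of keratins, 22.2% of annexins and 10.5% of protease inhibitors, against 3.91% of all genes. Those called lower were 11.1% of annexins, 10.5% of protease inhibitors and 11.1% of S100 proteins, against 3.05%. In such short lists a few calls set these shares.

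Interferon-stimulated genes were called lower more often than higher, and inflammatory genes were called in both directions. Of 33 interferon-stimulated genes 4 were called lower (12.1%, against 3.05% of all genes) and 1 higher (3.03%, under the 3.91% of all genes). Their median was -0.05 in light and -0.50 in heavy polysomes. BST2 and IFI27 were joined by IFITM1, which blocks virus entry, with 735 and 141 counts (-2.11), although 52.5% of its exons are shared with a gene on the same strand. Of 25 NF-kB pathway and inflammatory genes 2 were higher (8%, IL32 and ICAM1) and 3 lower (12%, CXCL8 among them), with a median of -0.30. Antigen presentation genes had 2 of 19 called higher (10.5%), PDIA3 and CALR, and a median of 0.53 against -0.17 in heavy polysomes. HLA-C, a class I molecule whose reads may be shared with its relatives, had 5039 and 7604 counts (0.85).

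The microRNA pathway had 22 genes with 100 or more counts, of which 1 was called higher (4.55%, near the 3.91% of all genes) and 0 lower. Their median was 0.16 in light and 0.03 in heavy polysomes, and -0.077 against the mixed reference. For the nuclear steps, the hairpin cutter DROSHA stood at -0.17, its partner DGCR8 at -0.46 and the exporter XPO5 at 0.24. The Dicer partners TARBP2 and PRKRA stood at -0.24 and 0.01. Of the Argonautes, AGO1 had 592 and 798 counts (0.69, interval 0.54 to 0.84), while AGO2 stood at 0.30, AGO3 at 0.08 and AGO4 at -0.20. Among the scaffolds that bind Argonautes, TNRC6A was the gene called, with 501 and 1105 counts (1.40, 1.25 to 1.55). TNRC6B had 522 and 801 counts (0.88) and TNRC6C 176 and 153 (0.06). The RNA helicase DDX6, which represses bound mRNAs, had 909 and 1439 (0.92), and the exonuclease XRN1 284 and 383 (0.69). The other helicase, MOV10, stood at 0.39 and the nuclease DIS3L2 at 0.27. The uridylyl transferases ZCCHC11 and ZCCHC6 stood at -0.52 and 0.02. Of 23 deadenylation and decapping factors 1 was called higher, the decapping enzyme DCP2 with 1489 and 2754 counts (1.15), and the median was -0.09.

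Published targets of let-7, miR-17 and other microRNAs were taken by list. Of 31 let-7 targets 2 were called higher (6.45%, against 3.91% of all genes) and 1 lower (median 0.14). CDK6 and CCND1, a D cyclin with 3556 and 6746 counts (1.18), were the higher ones, and IGF2BP3, an RNA-binding protein of fetal tissue, had 2840 and 867 counts (-1.45). Of 29 miR-17 family targets 5 were called higher (17.2%) and 0 lower (median 0.25): ENPP5 had 229 and 1031 counts (2.42) and ZNFX1 334 and 787 (1.49), and APP and CCND1 were among the others. Of 18 miR-15/16 targets 4 were higher (22.2%) and 1 lower (median -0.07), with WNT3A and CDK6 among the higher ones. Of 15 miR-200 and miR-141 targets 2 were higher (13.3%; median 0.06), the Notch ligand JAG1 with 327 and 830 counts (1.60) and the membrane linker MSN with 823 and 1670 (1.28). Of 20 miR-21 and miR-34 targets 2 were higher (10%; median 0.04), CDK6 and JAG1. The lists share members, so these counts are not independent.

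Sites in the 3′ UTRs of such targets are shown with the 7 bases that pair with the seed in capitals, on the transcript strand, with GRCh38 positions from GENCODE. They are shown because ENPP5 had a higher ratio and IGF2BP3 a lower one, each with a match to a seed. Both ENPP5 sites, on the minus strand of chromosome 6, pair with miR-17. The IGF2BP3 site, on the minus strand of chromosome 7, pairs with let-7a. The CCND1 site shown, on the plus strand of chromosome 11, pairs with miR-16. A match to miR-17 in the CCND1 3′ UTR is not shown. The first of 2 sites in the 10219 nucleotide 3′ UTR of CDK6, on the minus strand of chromosome 7, pairs with miR-29a. The same search found no let-7a match in the 3′ UTRs of CDK6 and DICER1, and no miR-200c match in that of JAG1. A match is a description and not a shown binding site.
ENPP5, chr6:46160996-46161017: gtaccttatgtattGCACTTTa
ENPP5, chr6:46160954-46160975: ctttaatttgaaatGCACTTTa
IGF2BP3, chr7:23311795-23311816: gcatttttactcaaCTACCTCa
CCND1, chr11:69653301-69653322: tctttcacattgttTGCTGCTa
CDK6, chr7:92606426-92606447: ctggcttgtccacaTGGTGCTc

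Over all genes, a 7-base seed match hardly went with the ratio. The 3′ UTRs of 10599 coding genes were searched for the 7-base matches of 29 microRNAs, on the transcript strand only. The medians of the genes with a match lay between 0.00 for miR-34a and 0.09 for miR-21, against 0.02 over all these genes. The share called higher ran from 3.29% to 5.97% between microRNAs, against 3.92% over all. Longer 3′ UTRs hold more matches, so the median of genes with a match was also set against that of genes without one in each of 4 equal classes of 3′ UTR length. The mean of the 4 differences lay between -0.03 and 0.10 for the 29 microRNAs and was above 0 for 20 of them. The values were 0.07 for miR-17, 0.10 for miR-21, 0.07 for miR-29a, 0.01 for let-7a and 0.02 for each of miR-16 and miR-122. With the 8-base match, which adds an A opposite the first base, the medians ran from -0.010 for miR-34a to 0.17 for miR-29a. They were 0.15 for 613 genes of miR-17, 0.10 for 303 of miR-21, 0.093 for 528 of miR-16 and 0.018 for 455 of let-7a, and 0.015 for 345 of miR-122. Over the 4 classes of 3′ UTR length, the mean difference for the 8-base match ran from -0.10 for miR-103a to 0.18 for miR-17. It was 0.18 for miR-21, 0.17 for miR-29a, 0.030 for miR-16, -0.033 for let-7a and -0.017 for miR-122. Which of these microRNAs the cells contained was not measured here.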

How the data were processed

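Polysomal RNA of HCT116 cells was sequenced in 4 libraries, 1 per genotype and fraction. The authors deposited whole-number counts per gene symbol. The build hg19 and the tools STAR, HTSeq and CASAVA are named per the submitters' processing notes, without versions. The annotation and the strand rule of the counting were not given in the sources used here. No column was left without a sample.

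Members, gene lists and microRNAs were chosen with earlier results of these data known. Counts were scaled by TMM (edgeR 4.0.16, R 4.3.3) over the 13574 genes that filterByExpr kept, with all 4 libraries. Log2 ratios used a prior count of 2. No p-value was computed, since each side has 1 library and no residual spread. A count of 0 allows 3 counts, or 0.136 CPM in the wild type and 0.163 CPM in the labelled knockout light library. Alternatives were library totals, DESeq2 1.42.0 size factors, upper-quartile scaling, TMM on the light libraries, no ribosomal RNA row, count minimums of 1, 50 and 200, prior counts of 0.5 and 5, and the mixed reference. The calls were run on counts simulated for this comparison over 26364 genes, with Poisson noise alone. All 50 genes at each of 4-fold, 3-fold, 0.3-fold and 0.25-fold were called, and 0 of 10664 unchanged ones. The interval rests on the same noise and no change under 3-fold was simulated. This check therefore says nothing on calls near 2-fold or on variation between cultures.

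Symbols were matched to GENCODE 44 (GRCh38) for 24427 genes, 23035 directly and the others through RefSeq synonyms, for gene types, lengths, overlaps, 3′ UTRs and positions. 

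Named were DICER1, the 15 highest and 15 lowest genes by the interval bound nearest 0, the 10 of each among genes with 2000 or more counts, the 10 of each with a heavy ratio within 0.25 of 0 and 100 or more counts in both pairs, the 3 members of each of 45 lists farthest from 0, and the microRNA pathway. Some of these genes are not reported here, and list members that add little are given by counts only.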

Additional observations from a re-analysis of the deposited data

Results flagged for a closer look

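In 8 of the gene lists the medians of light and heavy polysomes pointed in opposite directions, each by 0.1 or more, among lists with 5 or more genes considered. The difference between the fractions was not tested, because each has 1 library a side. The light median exceeded the heavy median by 0.74 for aminoacyl-tRNA synthetases, 0.70 for antigen presentation genes, 0.63 for glycolytic enzymes and 0.55 for proteasome subunits. It exceeded it by 0.47 for complex I subunits, 0.46 for protease inhibitors, 0.43 for DNA replication machinery and 0.29 for SR and hnRNP proteins. In all 8 lists the light median was the one above 0. Against wild type light counts mixed with 20% of heavy counts, 5 of the 8 medians lay below 0. They were aminoacyl-tRNA synthetases at -0.31, glycolytic enzymes at -0.62, DNA replication machinery at -0.23, SR and hnRNP proteins at -0.15 and protease inhibitors at -0.060. The median of all genes against that reference was itself -0.08, and protease inhibitors stood above it.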

How the results depend on the processing

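With 1 library a side no replicate could be left out and no paired analysis was possible because each genotype and fraction has 1 library. The counts of higher and lower genes stayed within 1.5 times the reported 430 and 335 under every other scaling, prior count and count minimum, except with no minimum, where genes with few counts raised them to 718 and 693. The mixed reference, which alters the wild type counts themselves, took the higher calls to 174, the lists with a median at least 0.3 from 0 from 25 to 12 of 45, and the median over microRNAs of the seed-match medians from 0.04 to -0.019. Of those 25 it turned 6 list medians: TRiC chaperonin subunits (-0.33), aminoacyl-tRNA synthetases (-0.31), glycolytic enzymes (-0.62), keratins (-0.17), epithelial junction genes (-0.055) and tubulins (-0.058). It also turned 7 named genes, CCT5 (-0.069), FARSA (-0.20), HNRNPM (-0.15), KRT8 (-0.13), PSMD1 (-0.16), RPA1 (-0.069) and STIP1 (-0.10), and ended the call of 37 others among the 186 genes compared. No other alternative listed in the methods turned one of those lists or a called gene, though some ended calls near 2-fold: library totals those of EGFR, EIF5B, HNRNPM and RPA1, DESeq2 size factors those of GADD45A, HIST1H1C, HIST3H2A, KLHL29 and VGLL4, leaving out the ribosomal RNA row the last 4 of these, and a prior count of 5 that of KLHL29. The median of all genes moved to -0.08 with library totals and with the mixed reference. Against the mixed reference, the seed-match median of -0.019 thus stood above that of all genes. So did epithelial junction genes, tubulins, CCT5 and RPA1, while the other lists and named genes that it turned stood below. The alternatives on the short arm of chromosome 10 and on noncoding RNAs were chosen after seeing the data; the short arm ranged from -0.85 to -0.64 and the noncoding RNAs from -0.68 to -0.34.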
